A study of Rattus norvegicus with 14 samples.

Results

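Titin (*Ttn*) was examined together with 9 genes of the slow, cardiac and embryonic sarcomere in the abdominal aorta of the rat, 10 genes of the 19357 measured. The 10 genes are *Ttn*, *Myh7*, *Myl2*, *Myl3*, *Tnni1*, *Tnnt1*, *Tnnc1*, *Myh3*, *Myh8* and *Actc1*, found by name in the annotated expression table, where each had 1 row. They were chosen from their levels on these same 14 arrays, in which animals with experimental preeclampsia differed from healthy pregnant animals. Their values in that comparison are therefore a description and carry no test. The other comparisons use the same experimental preeclampsia or healthy pregnant arrays, so the choice bears on them too. Female Wistar outbred rats formed 3 groups. All of them were fitted with a jugular vein cannula and infused 14 days later, over 1 h in a volume of 2 ml. Non-pregnant rats (NPr, n = 4) and pregnant rats (Pr, n = 5) received saline, and pregnant rats with experimental preeclampsia (ExpPE, n = 5) received lipopolysaccharide (LPS) from *Escherichia coli* at 1 µg/kg bodyweight. The pregnant rats of both groups were killed at day 20 of pregnancy. The NPr rats were matched for age, which is not given as a number in the sources used here. No non-pregnant rat given LPS was on the arrays, so LPS is seen here only in pregnancy. RNA came from whole abdominal aortas that had been cleaned of surrounding tissue, 1 animal per array, and each animal is named by its group and a number that only identifies it.

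The sarcomere is the contractile unit of striated muscle. Titin spans it from the Z-disc to the M-band as a molecular spring, and is shared by heart and by fast and slow skeletal muscle. Myosin heavy chains, light chains and the troponins come in forms that differ between fibre types. Slow skeletal fibres share some myosin chains and their troponin C with the heart ventricle. The embryonic and perinatal myosins are made in developing or regenerating muscle. The wall of the abdominal aorta is made of smooth muscle, which has its own actin and myosin and no sarcomeres, and the vessel lies beside skeletal muscle and fat.

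The sequence before the start of 8 of the 10 genes was matched by Entrez gene ID in RefSeq (build GRCr8). The 4 shown belong to genes that behaved differently over the 14 arrays. *Ttn* was closest to the fast fibre genes, *Myl3* and *Tnnt1* to the slow fibre genes, and *Myh3* to neither. Without ExpPE animals 1 and 2, *Ttn* and these slow genes were more alike. Each sequence shown is the 250 bases before the start of the gene, 5′ to 3′ on the strand of the gene. Capitals mark matches, on either strand, to a MEF2 site (*Ttn*), the MCAT motif CATTCC and a CArG box (*Myl3*), and the TATA motif TATAAA (*Tnnt1* and *Myh3*). *Ttn* lies at chr3:82332111-82332360 on the minus strand, *Myl3* at chr8:119616844-119617093, *Tnnt1* at chr1:78348785-78349034 and *Myh3* at chr10:52268935-52269184, all 3 on the plus strand.
Ttn: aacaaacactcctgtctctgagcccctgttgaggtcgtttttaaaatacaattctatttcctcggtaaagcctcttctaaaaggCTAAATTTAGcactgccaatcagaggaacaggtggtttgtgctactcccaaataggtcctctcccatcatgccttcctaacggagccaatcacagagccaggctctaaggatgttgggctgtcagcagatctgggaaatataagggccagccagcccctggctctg
Myl3: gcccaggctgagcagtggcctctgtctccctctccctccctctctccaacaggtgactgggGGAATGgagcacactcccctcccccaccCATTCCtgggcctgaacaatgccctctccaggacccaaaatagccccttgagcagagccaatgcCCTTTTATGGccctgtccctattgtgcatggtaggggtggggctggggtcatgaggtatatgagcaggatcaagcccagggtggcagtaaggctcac
Tnnt1: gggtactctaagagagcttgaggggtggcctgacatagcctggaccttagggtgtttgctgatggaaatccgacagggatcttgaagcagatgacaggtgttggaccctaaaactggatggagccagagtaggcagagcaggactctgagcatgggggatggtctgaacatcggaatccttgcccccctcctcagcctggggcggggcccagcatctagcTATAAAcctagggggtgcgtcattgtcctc
Myh3: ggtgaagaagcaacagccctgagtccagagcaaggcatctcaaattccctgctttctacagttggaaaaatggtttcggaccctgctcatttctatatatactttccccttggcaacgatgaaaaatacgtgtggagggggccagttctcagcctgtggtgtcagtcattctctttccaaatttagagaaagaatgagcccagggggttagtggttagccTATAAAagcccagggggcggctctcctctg
A MEF2 site was found in 1 of the 8 matched sequences, and 2.96% of 33469 rat promoters of the same length held one. The CArG box was found in 1 (1.5% of all promoters), MCAT in 1 (12.1%), TATA in 2 (12.9%) and the E-box CANNTG, which myogenic factors can bind and which is not capitalised, in 6 (65.5%). In *Ttn* the MEF2 match began 166 bases before the start. In *Myl3* the MCAT matches began at 189 and 161 bases and the CArG box at 97 bases before the start, while TATA began at 30 bases before it in both *Tnnt1* and *Myh3*. The motifs did not overlap each other in these windows, and a match describes only the letters.

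The values were log2 intensities, and a difference of 1 is a doubling of intensity. The median intensity of an array ranged from 5.58 to 5.67. Genes of olfactory, vomeronasal, trace amine and taste receptors, 1191 in all, served as a measure of background. They had a median of 2.65 and a 95th percentile of 4.01, and the median of all genes was 5.62. The smooth muscle identity of the tissue was checked with 14 genes, among them *Acta2*, the smooth muscle actin, which lay between 12.06 and 13.05 on all 14 arrays. The deposited data hold a conflict between labels that bears on every comparison with ExpPE or Pr. Groups were taken from the array names in the annotated table (LPS, saline, NP), but a second table with identical values gives the 5 arrays named LPS the titles of Pr animals and the 5 named saline the titles of ExpPE animals. Under those titles every difference between ExpPE and Pr changes sign. The array names also carry a letter, and B is the only letter shared by groups (NPr animal 4 with ExpPE animals 1 and 2), so letter and group cannot be told apart elsewhere. Within letter B, *Ttn* was at 3.56 in the NPr animal, the lowest of all 14 arrays. It was at 10.78 and 10.44 in the ExpPE animals, the highest of all arrays. ExpPE animals 3, 4 and 5, at 7.06, 8.18 and 5.07, carried letter C. Letter and *Ttn* level therefore also ran together inside ExpPE.

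*Ttn* was at or near background in most NPr and Pr animals and very high in a few animals, which were found in every group. It ranged over 7.22 log2 units, a 149-fold range, and its standard deviation over the 14 arrays (2.84) ranked 4 among the 19357 genes. In NPr the log2 intensity of *Ttn* was 3.95, 3.90, 8.65 and 3.56 in animals 1 to 4. In Pr it was 10.33, 4.07, 4.24, 4.09 and 3.66 in animals 1 to 5, and in ExpPE it was 10.78, 10.44, 7.06, 8.18 and 5.07. NPr animal 3 and Pr animal 1 stood far above the rest of their groups, whereas all 5 ExpPE animals were above the other NPr and Pr animals. Pr animal 1 was higher than ExpPE animals 3, 4 and 5, so the groups overlapped. The means were 5.02 ± 2.43 (SD, n = 4) in NPr, 5.28 ± 2.83 (n = 5) in Pr and 8.30 ± 2.38 (n = 5) in ExpPE. In bulk tissue, fewer cells of a type and less RNA per cell cannot be told apart. The *Ttn* value summarised 191 probes, against a median of 26 probes per gene.

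**Figure D1:**
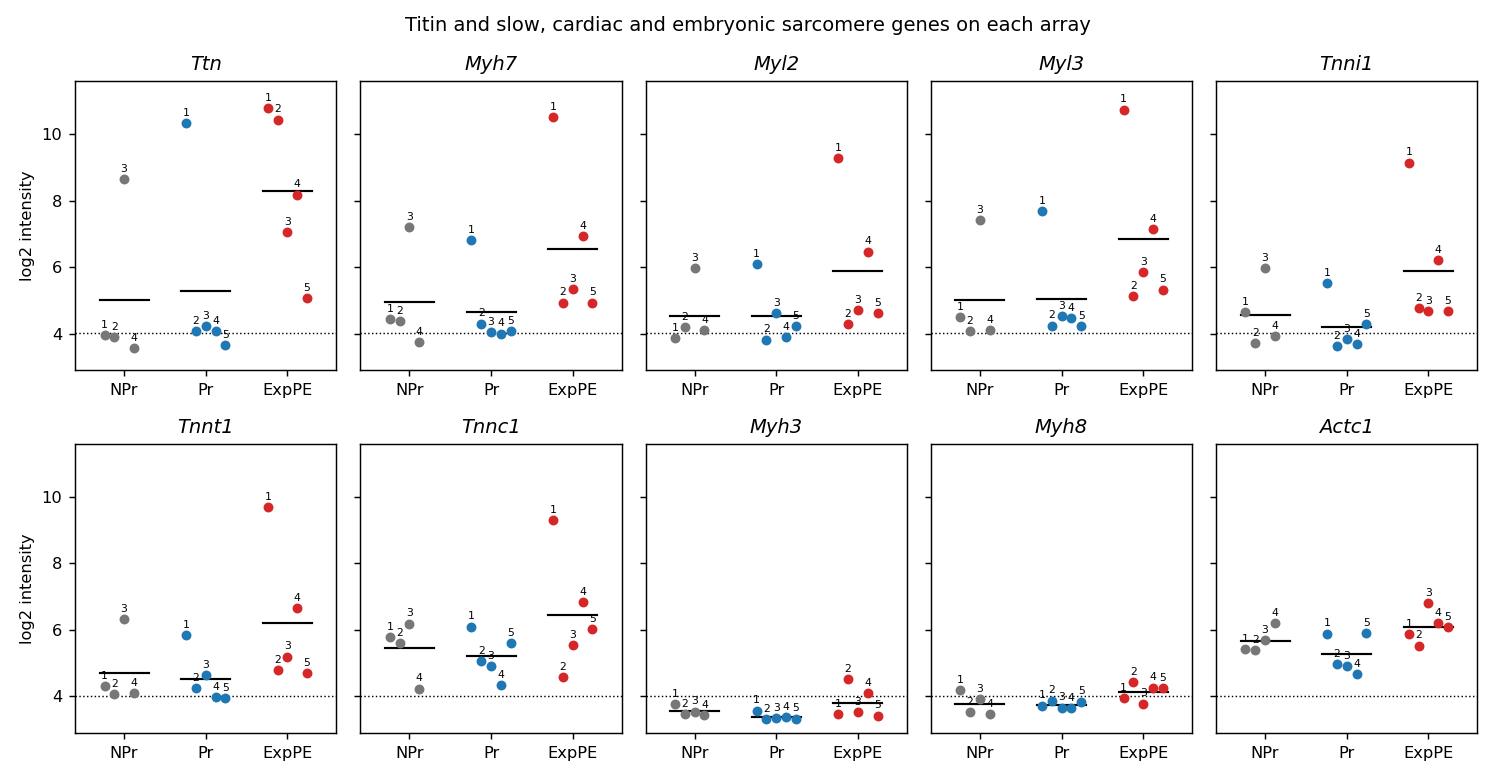
Log2 intensity (y axis) of each of the 10 genes in NPr, Pr and ExpPE, 1 point per animal with its number, a bar at the group mean and a dotted line at the 95th percentile of the receptor genes (4.01). *Ttn* is high in NPr animal 3, Pr animal 1 and most ExpPE animals, the slow genes peak in ExpPE animal 1, and *Myh3* and *Myh8* stay close to the dotted line.

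The 6 genes of slow fibres, of which *Myh7*, *Myl2*, *Myl3* and *Tnnc1* are also made in the heart ventricle, formed a tight group topped by a single animal, ExpPE animal 1. *Myh7* encodes the slow, or beta, myosin heavy chain. Its log2 intensity was 4.43, 4.37, 7.21 and 3.74 in NPr, 6.81, 4.30, 4.04, 4.00 and 4.07 in Pr, and 10.51, 4.93, 5.35, 6.94 and 4.93 in ExpPE. ExpPE animal 1 was the highest, NPr animal 3, ExpPE animal 4 and Pr animal 1 followed close to each other, and all 5 ExpPE animals lay above the remaining Pr and NPr animals. ExpPE animal 2, among the highest in *Ttn*, was at the low end of its group in *Myh7*. The means were 4.94 ± 1.55 (SD, n = 4) in NPr, 4.64 ± 1.22 (n = 5) in Pr and 6.53 ± 2.37 (n = 5) in ExpPE.

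The slow myosin light chains had the same 4 leading animals. *Myl3*, the essential light chain of slow fibres and ventricle, was at 4.49, 4.07, 7.42 and 4.10 in NPr, at 7.70, 4.24, 4.54, 4.47 and 4.23 in Pr, and at 10.74, 5.13, 5.86, 7.15 and 5.32 in ExpPE. *Myl2*, the regulatory light chain of the same muscles, was at 3.88, 4.19, 5.96 and 4.12 in NPr, at 6.09, 3.82, 4.62, 3.90 and 4.22 in Pr, and at 9.28, 4.29, 4.70, 6.47 and 4.61 in ExpPE. In both genes ExpPE animal 1 was far above all other animals, and in *Myl2* the lower ExpPE animals lay among the other Pr animals, whereas in *Myl3* they were above them.

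The troponins regulate contraction by calcium, and *Tnni1*, *Tnnt1* and *Tnnc1* encode the inhibitory, the tropomyosin-binding and the calcium-binding subunit of slow muscle, the last also that of the heart. *Tnni1* was at 4.64, 3.73, 5.98 and 3.92 in NPr, at 5.52, 3.63, 3.82, 3.68 and 4.29 in Pr, and at 9.15, 4.78, 4.69, 6.20 and 4.67 in ExpPE. *Tnnt1* was at 4.32, 4.07, 6.32 and 4.11 in NPr, at 5.84, 4.25, 4.65, 3.99 and 3.96 in Pr, and at 9.69, 4.79, 5.19, 6.66 and 4.71 in ExpPE. These 2 genes had the same high animals as *Myh7*, and apart from NPr animal 3 and Pr animal 1 no NPr or Pr animal reached the ExpPE animals. *Tnnc1* was at 5.78, 5.60, 6.19 and 4.23 in NPr, at 6.10, 5.07, 4.92, 4.35 and 5.60 in Pr, and at 9.30, 4.58, 5.54, 6.84 and 6.02 in ExpPE. *Tnnc1* overlapped more, with ExpPE animal 2 below 3 of the NPr animals.

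Over the 14 arrays, the 15 pairs among the 6 slow genes had Pearson correlations from 0.87 to 0.99, with a median of 0.97. Their standard deviations ranked from 28 (*Myl3*) to 126 (*Tnnc1*) among the 19357 genes. Correlations across arrays are descriptions, since the arrays share 1 normalization and a few arrays with high muscle gene levels.

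The embryonic (*Myh3*) and perinatal (*Myh8*) myosin heavy chains were at the background on most arrays. *Myh3* was at 3.77, 3.47, 3.54 and 3.43 in NPr, at 3.57, 3.32, 3.35, 3.38 and 3.33 in Pr, and at 3.47, 4.53, 3.53, 4.10 and 3.42 in ExpPE. *Myh8* was at 4.18, 3.53, 3.91 and 3.47 in NPr, at 3.72, 3.87, 3.66, 3.64 and 3.84 in Pr, and at 3.94, 4.42, 3.78, 4.27 and 4.24 in ExpPE. Only ExpPE animals 2 and 4 exceeded the 95th percentile of the receptor genes in *Myh3*, and only these, ExpPE animal 5 and NPr animal 1 did so in *Myh8*. ExpPE animal 1, with the most slow fibre signal, was not among them. The receptor genes themselves had their highest means on the same arrays, 3.03 in ExpPE animal 2, 3.00 in ExpPE animal 4, 2.94 in NPr animal 1 and 2.84 in ExpPE animal 5, against 2.63 to 2.73 on the other 10. The mean of *Myh3* and *Myh8*, each taken over its own median, correlated with the receptor mean over 14 arrays (r = 0.91, rho = 0.69; r = 0.77 without the 2 arrays farthest from the median). The part of array background in these 2 genes was not tested further.

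**Figure D2:**
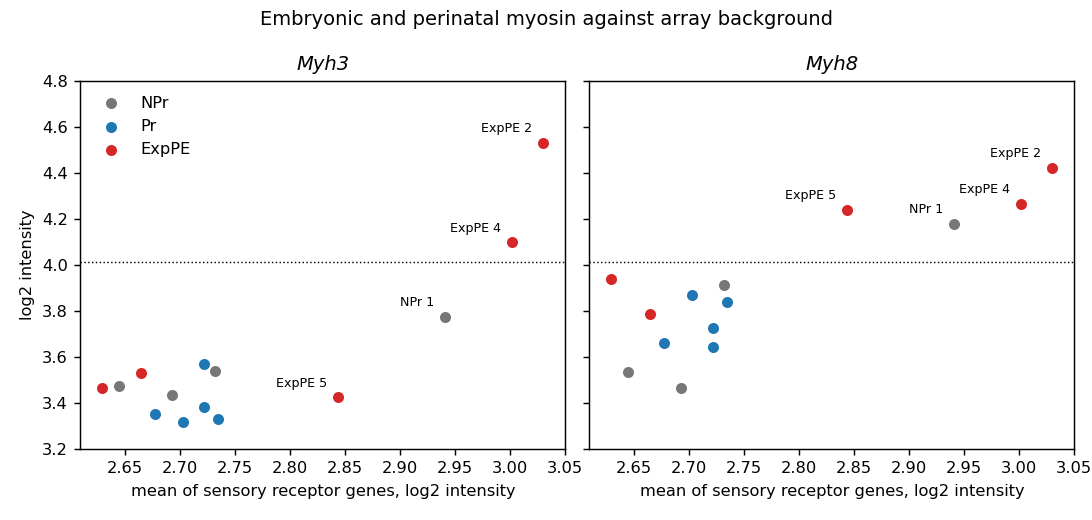
Log2 intensity of *Myh3* and *Myh8* (y axis) against the mean log2 intensity of 1191 sensory receptor genes on the same array (x axis), 1 point per animal coloured by group, with a dotted line at the 95th percentile of the receptors (4.01). The arrays above the line are those with receptor means from 2.84 to 3.03.

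*Actc1*, the cardiac actin, is also made in immature skeletal muscle and at low levels in smooth muscle. It was at 5.43, 5.38, 5.68 and 6.19 in NPr, at 5.88, 4.98, 4.91, 4.68 and 5.90 in Pr, and at 5.88, 5.53, 6.80, 6.21 and 6.07 in ExpPE. The highest animal was ExpPE animal 3, followed by ExpPE animal 4, while the 3 animals highest in *Ttn* (ExpPE animals 1 and 2 and Pr animal 1) were lower. NPr animal 4, with the lowest *Ttn*, was among the 3 highest in *Actc1*. Its correlation was 0.34 with the mean of the 6 slow genes and 0.30 with the fast fibre list.

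Healthy pregnancy was compared with the non-pregnant state to ask whether these genes move with pregnancy itself. In Pr vs NPr, 2 of the 10 genes had a positive difference, as 45.4% of all genes had, and 8 a negative one, with a median of -0.17 against -0.018 over all genes. The largest differences were -0.40 (SE 0.30) in *Actc1* and -0.38 (SE 0.80) in *Tnni1*, and *Ttn* differed by 0.26 (SE 1.50). By limma with Benjamini-Hochberg adjustment 0 of 10 passed an adjusted p of 0.05, where 0.212% of all genes did, 0 had an unadjusted p under 0.05, where 5.35% of all genes did, and the lowest adjusted p was 0.9998. At an unadjusted p under 0.05 with a fold over 1.4 it was also 0 of 10, beside 3.41% of all genes. The groups overlapped in all 10 genes, where 1.79% of all genes were higher and 0.914% lower without overlap.

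In ExpPE vs NPr all 10 differences were positive, as were 53.1% of all genes, with a median of 1.33 against 0.018 over all genes. *Ttn* differed by 3.29 (SE 1.50), 9.77-fold, and the 6 slow genes by 1.01 (*Tnnc1*) to 1.82 (*Myl3*). *Myh8* differed by 0.36, *Myh3* by 0.25 and *Actc1* by 0.43. By limma 0 of 10 passed an adjusted p of 0.05, where 0.0982% of all genes did, and the lowest adjusted p was 0.64. At an unadjusted p under 0.05 it was 1 of 10 (*Ttn*), where the background was 7.61%. This same gene was also past the cut of the study's methods (called the study threshold here: fold over 1.4 together with unadjusted p under 0.05), as were 3.13% of all genes. The groups overlapped in all 10 genes, where 1.25% of all genes were higher in ExpPE without overlap.

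In ExpPE vs Pr, the comparison on which the genes were chosen, all 10 differences were positive, beside 53.6% of all genes. *Ttn* was 3.03 higher (SE 1.41), 8.16-fold, which ranked 2 among all genes by size. The slow genes followed with 1.89 (SE 0.99) in *Myh7*, 1.81 (SE 1.03) in *Myl3*, 1.71 (SE 0.76) in *Tnni1*, 1.67 (SE 0.81) in *Tnnt1*, 1.34 (SE 0.81) in *Myl2* and 1.25 (SE 0.68) in *Tnnc1*. The differences were small in *Myh3* (0.42, SE 0.19) and *Myh8* (0.38, SE 0.16), and 0.83 (SE 0.28) in *Actc1*. The standard errors of the large differences were themselves large, and the gene with the smallest error relative to its difference was *Actc1*. No gene of the whole table passed an adjusted p of 0.05 by limma (0%), while 1642 genes, 8.48%, had an unadjusted p under 0.05, among them 5 of the 10. The study threshold was passed by 3 of the 10 (*Ttn*, *Tnni1*, *Actc1*), beside 2.72% of all genes. Each group serves in 2 of the 3 comparisons, which therefore share animals. The choice of the genes thus bears on all 3.

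**Figure D3:**
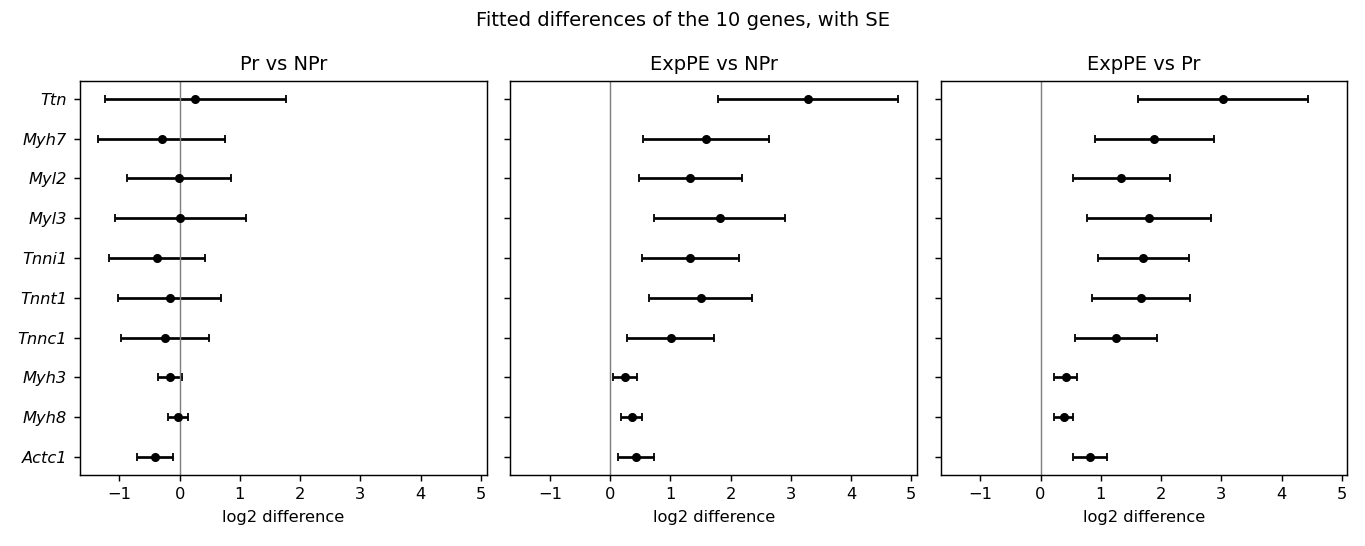
Fitted log2 differences (x axis, points) with their standard errors (bars) of the 10 genes in the 3 comparisons. All 10 points lie above 0 in both ExpPE comparisons, with the widest bars in *Ttn*, and scatter around 0 in Pr vs NPr.

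The outcome depended on single animals. The groups overlapped in all 10 genes in ExpPE vs Pr, where 0.62% of all genes were higher without overlap. Without Pr animal 1, all 5 ExpPE animals were above the other 4 Pr animals in 6 genes, beside 1.43% of all genes. The 6 were *Ttn*, *Myh7*, *Myl3*, *Tnni1*, *Tnnt1* and *Myh3*, and the difference in *Ttn* was then 4.29. In *Myh3* the margin was small, 3.42 in ExpPE animal 5 against 3.38 in Pr animal 4. Both values were under the 95th percentile of the receptor genes (4.01). Without NPr animal 3, all ExpPE animals were above the other 3 NPr animals in 6 genes (*Ttn*, *Myh7*, *Myl2*, *Myl3*, *Tnni1*, *Tnnt1*), beside 2.15%, and the difference in *Ttn* was 4.50. Both animals were singled out as the highest of their groups in *Ttn*, so this separation follows in part from leaving them out. The shares over all genes come from leaving out the same animals, which need not make the overlap in other genes. Without ExpPE animal 1 the median over the 10 genes was 0.82 in ExpPE vs Pr and 0.50 in ExpPE vs NPr. Without ExpPE animals 1 and 2 it was 0.99 and 0.71, and *Actc1* was the only gene of the 10 past the study threshold in ExpPE vs Pr (difference 1.09, SE 0.31), beside 2.42% of all genes, while 0 passed it in ExpPE vs NPr, beside 5.42%.

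The 4 animals with the highest mean of the fast fibre list (NPr animal 3, Pr animal 1, ExpPE animals 1 and 2) were then left out together, an alternative chosen after the values were seen. *Ttn* then differed by 2.76 (SE 0.54) in ExpPE vs Pr and by 2.96 (SE 0.58) in ExpPE vs NPr, and *Myl3* by 1.74 (SE 0.34) and 1.89 (SE 0.37). The remaining ExpPE animals, 3 to 5, were above all remaining Pr animals in 7 of the 10 genes, beside 4.39% of all genes. *Myh3* was among the 7, with the same small margin at background. These ExpPE animals were above all remaining NPr animals in 6 genes, beside 5.7%. The study threshold was passed by 8 of the 10 in ExpPE vs Pr, beside 2.59% of all genes, and by 6 in ExpPE vs NPr, beside 4.21%. The animals left out were those highest in *Ttn* itself, so the spread within each group was reduced by construction.

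Which kind of muscle gene each animal carried was read from a list of 15 measured fast fibre genes, such as *Acta1* (skeletal actin), *Ckm* (muscle creatine kinase), *Mylpf* (fast regulatory light chain) and *Myh4* (the fastest of the adult myosins). This list was drawn up with earlier results of these data known. The mean log2 intensity of the list was 4.97, 4.91, 8.20 and 4.82 in NPr, 11.34, 4.93, 5.19, 5.11 and 4.89 in Pr, and 9.82, 10.27, 7.19, 7.54 and 5.62 in ExpPE. *Ttn* followed this list closely (r = 0.98, rho = 0.98, n = 14; r = 0.997 without the 2 arrays farthest from the median). The 6 genes outside the 10 whose pattern was most like that of *Ttn* were *Myh1* (fast IIx myosin, r = 0.99), *Neb* (nebulin, the thin filament ruler, 0.99), *Atp2a1* (the calcium pump of fast fibres, 0.98), *Xirp2* (0.98), *Tnnc2* (fast troponin C, 0.98) and *Acta1* (0.98). By comparison the slow genes ranked from 109 (*Myl3*) to 1130 (*Tnnc1*) in likeness to *Ttn*, and *Myh3*, *Myh8* and *Actc1* ranked 1321, 2744 and 4154. Over the 14 arrays r with *Ttn* was 0.56 (*Tnnc1*) to 0.83 (*Myl3*) in the slow genes. Without ExpPE animals 1 and 2, the farthest from the *Ttn* median, it was 0.66 (*Tnnc1*) to 0.98 (*Myl3*). In the 6 nearest genes it was then 0.96 (*Acta1*) to 1.00 (*Myh1*), so the distinction rested largely on these 2 arrays.

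**Figure D4:**
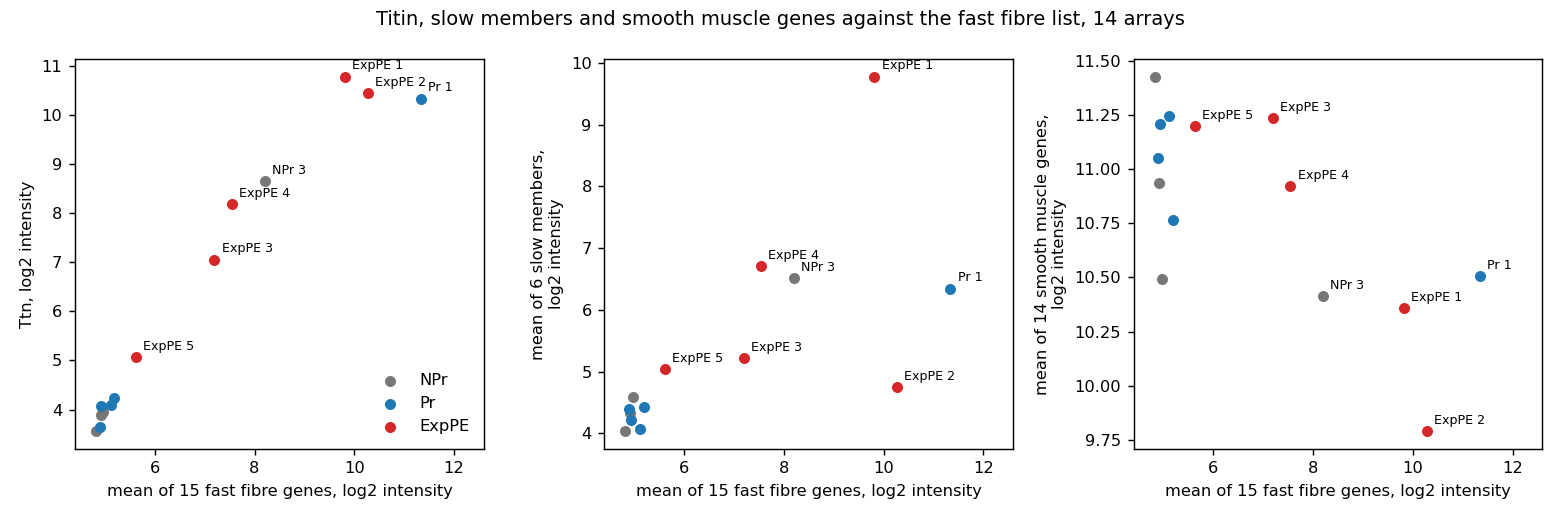
*Ttn* (left), the mean of the 6 slow genes (middle) and the mean of 14 smooth muscle genes (right), all in log2 intensity on the y axis, against the mean of 15 fast fibre genes (x axis), 1 point per animal coloured by group. *Ttn* is high in the animals with a high fast list in every group, while in the middle panel ExpPE animal 1 (9.78) lies far above and ExpPE animal 2 (4.75) below the other animals with a high fast list.

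The slow genes and the fast list did not move in step on every array. Expressed as height over each gene's own median on the 14 arrays, ExpPE animal 1 was 4.96 higher in the mean of the 6 slow genes and 4.22 higher in the fast list. ExpPE animal 2 was at -0.06 in the slow genes but 4.68 higher in the fast list, and 5.78 higher in *Ttn*. Pr animal 1 was 1.53 higher in the slow genes and 5.75 in the fast list. ExpPE animal 1 was thus high in both, ExpPE animal 2 in the fast list but not in the 6 slow genes, and Pr animal 1 more in the fast list than in the 6 slow genes. NPr animal 3 was 1.70 higher in the slow genes and 2.61 in the fast list, and ExpPE animal 4 was 1.89 and 1.95 higher. ExpPE animal 3 was 0.41 and 1.60 higher, and ExpPE animal 5 was 0.23 and 0.028 higher. Over 14 arrays the slow mean and the fast list had r = 0.68 and rho = 0.82, and r = 0.95 without the 2 arrays farthest from the median.

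**Figure D5:**
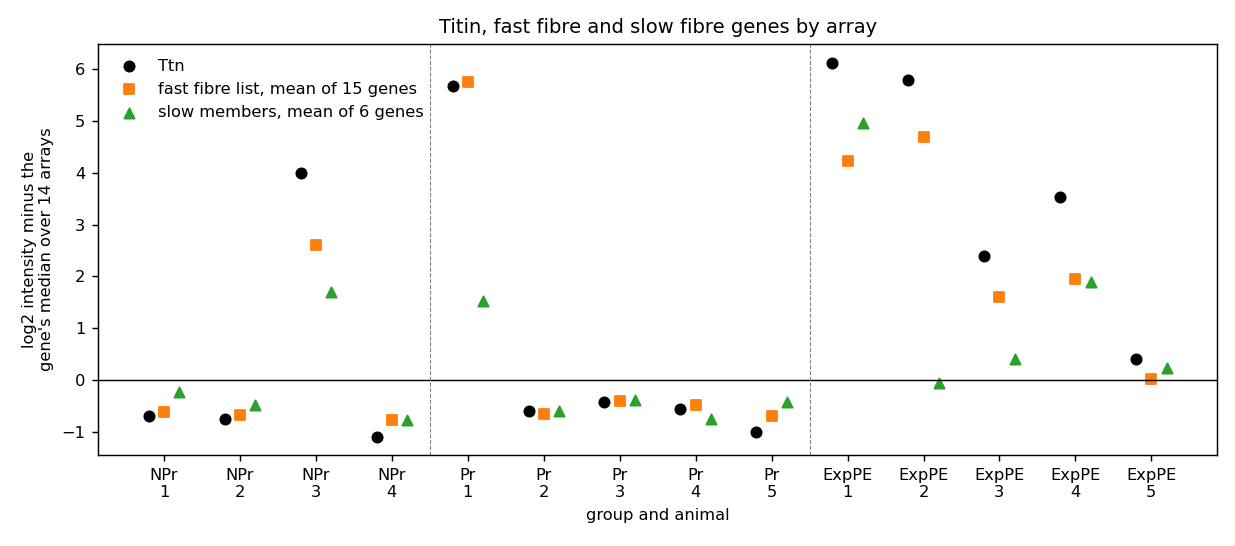
Height over the gene's own median on the 14 arrays (y axis, log2) of *Ttn* (circles), the mean of the fast fibre list (squares) and the mean of the 6 slow genes (triangles) in each animal (x axis). Squares and triangles are together in ExpPE animals 1 and 4, and apart by 4.75 in ExpPE animal 2 and 4.22 in Pr animal 1.

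The adult fast myosins did not all have the same pattern. *Myh1* was high in Pr animal 1 (11.90), ExpPE animal 1 (11.05), ExpPE animal 2 (10.90) and NPr animal 3 (9.06). *Myh4* was at 11.62 in Pr animal 1, 11.54 in ExpPE animal 2, 7.29 in ExpPE animal 1 and 8.10 in NPr animal 3. *Myh2*, the myosin of fast oxidative fibres and itself on the fast fibre list, was instead highest in ExpPE animal 1 (9.75). NPr animal 3 (7.72), Pr animal 1 (7.30) and ExpPE animal 4 (6.26) followed, and ExpPE animal 2 was at 5.36. *Myh2*, *Myoz2* (a Z-disc protein of slow and cardiac muscle) and *Sln* (sarcolipin, an inhibitor of the calcium pump) were named after their values were seen, as the genes outside the 10 nearest to *Myh7* (r = 0.97, 0.97 and 0.95 for *Myoz2*, *Myh2* and *Sln*). *Myoz2* was at 9.46 in ExpPE animal 1 and at 4.10 in ExpPE animal 2. The oxidative and the fastest myosin therefore peaked in different animals.

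Other genes of the sarcomere were given by list. The last list held myogenic regulators together with other genes of developing muscle and of the motor endplate, and is called myogenic here. In ExpPE vs Pr the median difference was 1.90 over the 15 fast fibre genes, all of them positive, and 0.60 over 11 other slow fibre genes (10 positive). It was 0.73 over 17 partners of titin (15 positive) and 0.23 over the 12 myogenic genes (11 positive), against 0.021 over all genes. In ExpPE vs NPr the medians were 2.46, 0.67, 0.98 and 0.18, and in Pr vs NPr 0.59, -0.10, 0.32 and -0.03. By limma 0 genes of any of these lists passed an adjusted p of 0.05 in any comparison, where at most 0.212% of all genes did. At an unadjusted p under 0.05 it was at most 1 gene per list and comparison. The share over all genes was 5.35% in Pr vs NPr, 7.61% in ExpPE vs NPr and 8.48% in ExpPE vs Pr. *Myl6b*, *Cacna1s*, *Tcap* and *Myot* were not analysed here. Among other slow fibre genes *Mb* (myoglobin) was at 11.40 in Pr animal 1, 10.96 in ExpPE animal 1 and 9.49 in ExpPE animal 2. *Mybpc1* (slow myosin binding protein C) was at 10.53, 10.07 and 9.20 in the same animals, so these 2 genes of the slow list were high in ExpPE animal 2, where *Myh7* was not. *Actn2*, the Z-disc actinin that binds titin, was at 9.86, 10.32 and 8.63 there and between 4.44 and 7.75 elsewhere. Of the myogenic list, the regulator *Myod1* reached 5.41 in Pr animal 1 and 4.12 in ExpPE animal 2, and the regulator *Myog* lay between 3.27 and 4.57. *Chrna1*, the acetylcholine receptor subunit of the motor endplate and not a regulator, was at 5.94 in ExpPE animal 2 and 5.52 in ExpPE animal 1.

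The defining genes of heart muscle were low on all 14 arrays, also in ExpPE animal 1. *Myh6* (alpha myosin heavy chain) lay between 3.72 and 4.92, *Tnni3* (cardiac troponin I) between 2.88 and 3.78, and *Nppa* (atrial natriuretic peptide) between 3.46 and 4.23. In ExpPE animal 1, the animal highest in the 6 slow genes, they were at 4.30, 3.06 and 3.67. *Myl7*, the atrial regulatory light chain, was at 4.23 there, 5.32 in ExpPE animal 2, 4.90 in ExpPE animal 4 and between 3.97 and 4.77 in NPr and Pr. Over 8 measured cardiomyocyte genes the mean per array ranged from 4.21 to 4.76 in NPr, 4.12 to 4.50 in Pr and 4.27 to 4.71 in ExpPE, with a median difference of 0.26 in ExpPE vs Pr. By limma 0 of the 8 passed an adjusted p of 0.05 in any comparison, where at most 0.212% of all genes did. The study threshold in ExpPE vs Pr was passed by 1 (*Myl7*, difference 0.50, SE 0.22), beside 2.72% of all genes. *Myl4* was not analysed here.

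Markers of other cells moved with the muscle genes on some arrays. The mean of the 14 smooth muscle genes ranged from 10.41 to 11.43 in NPr, 10.51 to 11.25 in Pr and 9.79 to 11.23 in ExpPE, and was lowest in ExpPE animal 2, at 1.14 below the median of its genes. It was lower where the fast list was higher (r = -0.71, rho = -0.66, n = 14). Without the 2 arrays farthest from the median of the smooth muscle genes, r was -0.53. All 14 genes had a negative difference in ExpPE vs Pr, with a median of -0.27, where 53.6% of all genes had a positive one. By limma 0 had an unadjusted p under 0.05, beside 8.48% of all genes. At an adjusted p of 0.05 it was also 0, as in the whole table. *Th* and *Dbh*, the enzymes of catecholamine synthesis in chromaffin cells and sympathetic nerves, were highest in ExpPE animals 1 and 2, at 9.80 and 8.59 for *Th* and at 11.43 and 9.98 for *Dbh*. In Pr animal 1 and NPr animal 3, the other animals with high *Ttn*, *Th* was at 3.46 and 3.23. The mean of the 4 chromaffin genes ranged from 3.50 to 5.74 in NPr, 3.61 to 5.70 in Pr and 3.54 to 8.20 in ExpPE. The 4 Schwann cell genes had means of 6.64 to 7.65, 6.57 to 7.29 and 6.86 to 8.19 in NPr, Pr and ExpPE. The median differences in ExpPE vs Pr were 1.12 in the chromaffin and 0.61 in the Schwann cell list. By limma 1 and 3 genes had an unadjusted p under 0.05, beside 8.48% of all genes. The study threshold was passed by 1 and 2, beside 2.72%. At an adjusted p of 0.05 it was 0 in both lists, as in the whole table. The mean of the 8 endothelial genes per array ranged from 7.88 to 8.57 and that of the 6 adipocyte genes from 8.93 to 11.06, with median differences of 0.01 and -0.03 in ExpPE vs Pr. The highest adipocyte means of their groups were in NPr animal 3 (11.00), Pr animal 1 (10.55) and ExpPE animals 1 and 2 (11.06 and 10.03), the same 4 animals that were highest in *Ttn*, although NPr animal 1 (10.59) and Pr animal 5 (10.42) came close with low *Ttn*. The part of skeletal muscle or other tissue carried with single aortas in the levels of the 10 genes was not tested.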

How the data were processed

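Abdominal aortas of 14 rats were profiled on Affymetrix Rat Gene 1.1 ST arrays, 1 per animal, and the number of arrays per group limits the precision. For the deposited intensities, the authors applied RMA (robust multichip average) with its quantile normalisation, in the MADMAX pipeline with probes reassigned to genes. Versions are not given in the sources used here. They are on the linear scale, so log2 was taken, with no filter and no further normalisation. Deposited columns of fold changes and p-values were not used, and 0 columns of animals were left out. The number of probes per gene was also deposited.

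The comparisons came from 1 limma fit (version 3.58.1, R 4.3.3) to all 14 arrays with an intensity-trended prior, tested on simulated data, and the Benjamini-Hochberg adjustment ran over all 19357 genes. The methods call their test paired but name no pairing. The members and gene lists were chosen with earlier results of these data known. The genes named were the 10 members, the 6 genes most like *Ttn*, the 2 of each list with the largest ExpPE vs Pr difference and 11 defining genes, and *Myh2*, *Myoz2* and *Sln* were added after their values were seen. Motifs were searched with Python 3.11.15.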

Additional observations from a re-analysis of the deposited data

Results flagged for a closer look

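In 8 of the 30 groups examined (10 genes in 3 groups), 1 animal stood apart, its gap to the nearest animal being more than Dixon's 95% critical share of the group's range. Chance gives about 1 in 20 groups, but the genes were chosen from their levels on these same arrays, so the 8 cannot be judged by that rate. The genes are also correlated, so the 8 are not independent and are only a description. NPr animal 3 stood apart in *Ttn* (gap over range 0.923), *Tnnt1* (0.889), *Myl3* (0.873) and *Myl2* (0.848). Pr animal 1 stood apart in *Ttn* (0.913), *Myl3* (0.911), *Myh7* (0.893) and *Myh3* (0.751). In each of the 8 the animal was the highest of its group. In ExpPE no animal stood apart by this measure in any of the 10 genes.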

How the results depend on the processing

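The count of the 10 genes past an adjusted p of 0.05 was 0 in every comparison and alternative. Groups taken from the titles of the second table turned the median difference in ExpPE vs Pr to -1.51 (main value 1.51), gave -0.17 with 0 genes past the study threshold in ExpPE vs NPr and 1.33 with 1 gene in Pr vs NPr. With the replicate block, possible only under those titles, the medians were -1.51, -0.038 and 1.50, with 5, 0 and 3 genes. The replicate numbers were not shown to pair the animals (13 same-numbered pairs of arrays, median r of deviations 0.102, range -0.398 to 0.395), and the block changed no call at the adjusted p.

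In ExpPE vs Pr the count past the study threshold (3) was 1 with only the 2 groups compared, 1 among genes above the median intensity, where 4 of the 10 remained, 1 after quantile normalisation once more, and 1 without ExpPE animals 1 and 2. It was 8 without the 4 animals with the highest fast list (chosen after seeing the data). Leaving out single animals gave 1 to 6, with 6 without Pr animal 1 or ExpPE animal 5, 5 without ExpPE animal 2 or 3, and 1 without Pr animal 2, 3, 4 or 5 or ExpPE animal 4. With array weights *Ttn* (2.61) was also no longer past it in ExpPE vs Pr, where 4 genes were. In ExpPE vs NPr the count (1) was 2 with array weights (*Myh8* and *Actc1*, with *Ttn* no longer past it at 2.54), 0 without ExpPE animals 1 and 2, 6 without the 4 animals, and 0 to 4 over single animals, with 4 without NPr animal 3 and 0 without NPr animal 2 or 4, Pr animal 2, 3 or 4, or ExpPE animal 1 or 4. The cause was not tested. Of all genes, 2.72% passed the study threshold in the main fit of ExpPE vs Pr. That share was 2.42% without ExpPE animals 1 and 2 and 2.59% without the 4 animals. In ExpPE vs NPr the same 3 shares were 3.13%, 5.42% and 4.21%. For the other alternatives the share over all genes is not given here, so their counts cannot be read against it. Over single animals left out the median ranged from 0.82 to 1.87 in ExpPE vs Pr, 0.50 to 1.81 in ExpPE vs NPr and -0.52 to 0.23 in Pr vs NPr. In ExpPE vs Pr, 214 of 234 single-gene values kept their sign, and the titles of the second table gave the other 20. Many of the 214 could not change, since leaving out an NPr animal, dropping the intensity trend or fitting only the 2 groups leaves this difference the same.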
